A study of Homo sapiens with 10 samples.

Results

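The genes described here are 10 members of the hypoxia-inducible factor (HIF) pathway and its response: the α subunits HIF1A and EPAS1, the regulators VHL, EGLN1 and EGLN3, and the target genes CA9, ADM, NDRG1, BNIP3 and ANKRD37. Each was found by its gene symbol. All 10 had a row among the 22626 rows of the count table, and all 10 passed the filter on low counts that left 14936 rows for testing. RNA was sequenced from ARPE-19, an established human line of retinal pigment epithelium (RPE), the pigmented cell layer behind the photoreceptors. The MG group (n = 5) was kept for 48 h in 5.5 mM D-glucose with 32 mM mannitol, a sugar alcohol that balances osmolarity. The HG group (n = 5) was kept for the same time in 37.5 mM D-glucose. All libraries came from this single line, and no source describes a change of oxygen in either group. The comparison addresses how high glucose alters transcription in these cells, and it is read here for genes known for their response to oxygen.

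HIF is a transcription factor made of an oxygen-regulated α subunit (HIF1A in HIF-1, EPAS1 in HIF-2) and a stable partner, ARNT. In oxygenated cells, prolyl hydroxylases of the EGLN family mark the α subunit, VHL recognizes the mark, and the protein is degraded. When oxygen falls the α subunit accumulates and binds hypoxia response elements of target genes. Most of this control acts on protein, which RNA-seq does not measure. In the RPE, the pathway is known for driving VEGFA and through it blood vessel growth in the retina.

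Hypoxia response elements contain the letters ACGTG or GCGTG. RefSeq windows of 250 bases before to 50 bases from the transcription start (GRCh38.p14) were found for 8 of the 10 members, and not for VHL and NDRG1. HIF1A has 2 windows and the others 1, which makes 9. On either strand, ACGTG stood in 4 of the 9 windows (CA9, BNIP3, ANKRD37 and EGLN1) and in 21.4% of 35116 windows of the same length over all genes. GCGTG stood in 4 of the 9 (1 of the 2 of HIF1A, and those of EPAS1, ADM and BNIP3) and in 36.5% of all windows. The palindrome CACGTG, which holds ACGTG on both strands, stood in BNIP3 and ANKRD37 and in 7.3% of all windows. The windows with ACGTG are printed because they include CA9 and BNIP3, the members with the largest differences that passed the test, beside ANKRD37 and EGLN1, which did not pass. Each runs 5′ to 3′ on the strand of the gene, with the ACGTG letters, or the same letters on the other strand (CACGT), in capitals. The windows are chr9:35673678-35673977 for CA9 and chr4:185396591-185396890 for ANKRD37, both on the forward strand, and chr10:131981874-131982173 for BNIP3 and chr1:231422238-231422537 for EGLN1, both on the reverse strand.
CA9 promoter: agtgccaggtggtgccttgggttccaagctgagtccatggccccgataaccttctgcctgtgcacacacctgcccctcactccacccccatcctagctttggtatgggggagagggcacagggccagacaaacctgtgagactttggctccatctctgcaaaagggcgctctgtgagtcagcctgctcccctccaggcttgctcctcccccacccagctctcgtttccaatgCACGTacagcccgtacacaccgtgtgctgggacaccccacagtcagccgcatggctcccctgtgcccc
BNIP3 promoter: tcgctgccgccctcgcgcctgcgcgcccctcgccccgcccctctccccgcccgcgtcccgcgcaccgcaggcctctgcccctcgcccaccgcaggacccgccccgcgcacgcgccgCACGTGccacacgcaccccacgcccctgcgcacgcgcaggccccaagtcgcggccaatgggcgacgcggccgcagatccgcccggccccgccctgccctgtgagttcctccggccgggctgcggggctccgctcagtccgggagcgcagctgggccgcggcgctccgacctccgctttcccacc
ANKRD37 promoter: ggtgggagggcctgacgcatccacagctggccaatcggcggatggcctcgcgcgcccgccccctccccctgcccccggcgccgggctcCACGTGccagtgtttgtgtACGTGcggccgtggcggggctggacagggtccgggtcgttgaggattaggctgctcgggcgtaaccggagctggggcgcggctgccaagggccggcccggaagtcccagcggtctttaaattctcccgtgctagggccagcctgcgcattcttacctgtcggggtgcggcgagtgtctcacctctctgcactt
EGLN1 promoter: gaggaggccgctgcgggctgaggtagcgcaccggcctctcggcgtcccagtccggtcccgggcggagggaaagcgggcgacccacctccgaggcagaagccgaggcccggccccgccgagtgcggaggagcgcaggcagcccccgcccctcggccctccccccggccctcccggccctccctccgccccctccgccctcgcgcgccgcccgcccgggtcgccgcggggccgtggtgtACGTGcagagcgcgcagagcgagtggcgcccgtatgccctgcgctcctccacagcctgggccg
In CA9 the match lay 18 to 14 bases before the start, and in EGLN1 13 to 9 bases before it. In BNIP3 the palindrome lay 134 to 129 bases before the start. ANKRD37 had the palindrome at 162 to 157 bases and another match at 143 to 139 bases before the start. So the same letters stood in promoters of members that passed the test below and of members that did not.

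The libraries held between 32448991 and 45864176 counts, with medians of 41468270 in MG and 39867119 in HG. TXNIP, a glucose-responsive gene read as a check of the labels, rose from 0.978 ± 0.224 to 8.72 ± 2.76 CPM (mean ± SD, n = 5, CPM are counts scaled to library size with TMM factors), with a log2 fold change of 3.15 and no overlap. Of the 10 RPE markers, 7 reached a mean of 1 CPM, among them RLBP1, MITF and OTX2, while RPE65 was near 0. The RPE markers summed to between 735 and 1284 CPM in MG and between 394 and 441 CPM in HG. Most of that sum was TIMP3, which fell from 609 ± 75.3 to 256 ± 15.8 CPM, and BEST1, which ranged from 0.577 to 551 CPM within MG and did not pass. PMEL also fell, and RLBP1, MITF, OTX2, TYRP1 and SERPINF1 did not pass. Epithelial markers summed to between 2660 and 3288 CPM in MG and between 1638 and 2315 in HG, with 2 of 3 detected and CDH1 near 0. Of the fibroblast markers 2 of 5 were detected, at 207 to 255 CPM in MG and 106 to 131 in HG, with COL1A2 and THY1 at or near 0. Of the leukocyte markers 1 of 3, CD68, was detected, at a summed 54.5 to 81.3 CPM in MG and 102 to 144 in HG, with PTPRC near 0. None of 3 endothelial and none of 3 photoreceptor markers reached 1 CPM. These marker sums moved with the groups, and their part in the results below was not tested. In bulk RNA, fewer cells with a transcript and less of it per cell cannot be told apart. The libraries HG_1 and MG replicate 2 stood apart: log2 CPM rose with the GC content of genes by 0.184 and 0.166 per 10 percentage points relative to the average library, against -0.0910 to -0.00407 in the other 8. Results that rest on them are therefore also given without both. The labels do not say whether libraries of a group came from separate cultures, and the general statement of the paper that experiments were independent does not name these libraries. The p-values therefore measure the spread between these samples, which may be technical.

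Among the 10 members, EPAS1, CA9, NDRG1 and BNIP3 were significantly higher in HG, and no member was significantly lower (edgeR quasi-likelihood test, adjusted p under 0.05 after Benjamini-Hochberg correction over all 14936 rows). HIF1A was lower at an unadjusted p under 0.05 and passed by DESeq2. Of all rows tested, 15.4% passed, 7.62% as higher and 7.80% as lower. The same 4 members had HG libraries that all lay above all MG libraries, which held for 6.74% of all rows. The median log2 fold change was 0.11 over the members and 0.00 over all rows. CA9 alone passed with a fold change above 1.5, as did 1.67% of all rows in that direction. Without HG_1 and MG replicate 2, 5 members passed, 4 higher and HIF1A lower, against 27.1% of all rows, and the same 5 passed in the same directions with a correction for GC content and length, against 27.9%. Without those libraries 13.3% of all rows were higher and 13.8% lower, and with the correction 13.8% and 14.1%. Without those libraries BNIP3 also went past the fold limit, against 1.81% of all rows.

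**Figure D1:**
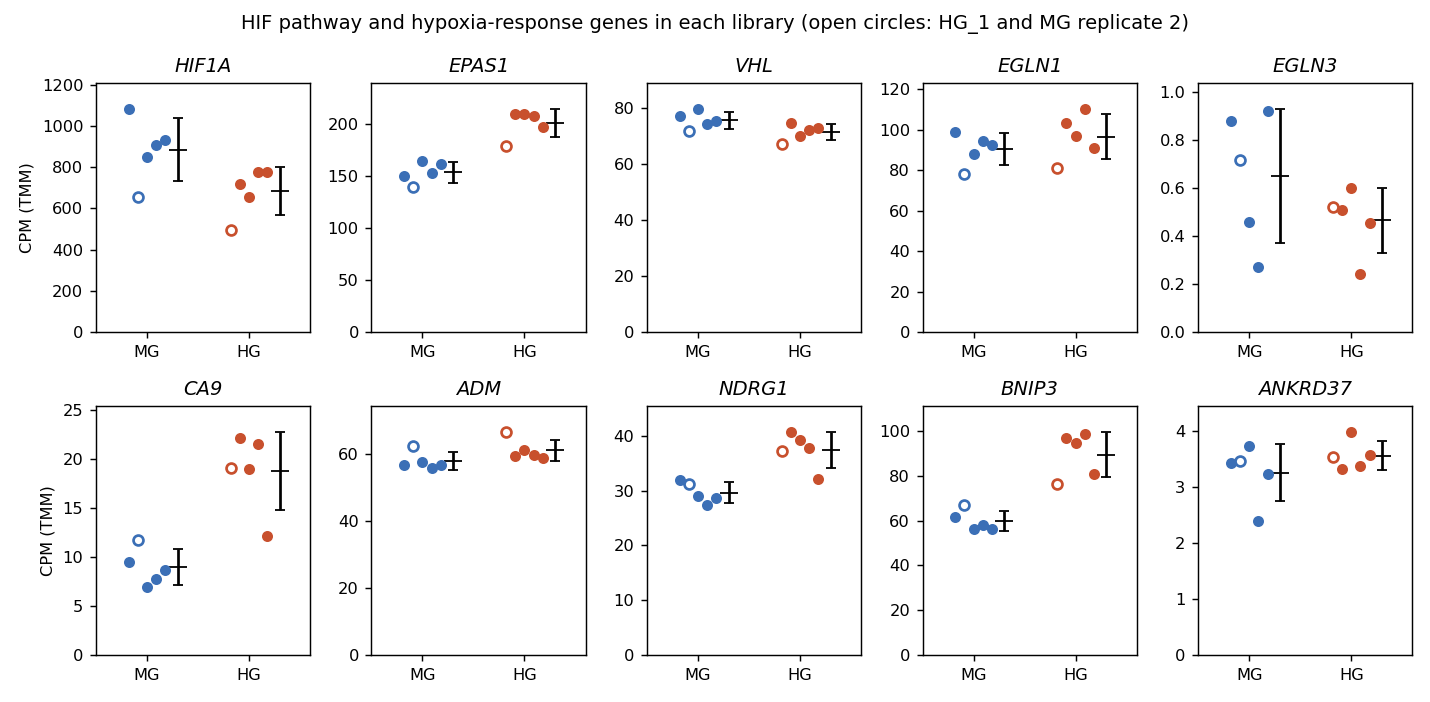
CPM of each member in the 5 MG and 5 HG libraries, with mean and SD beside the points and the libraries that stood apart as open circles; each vertical axis starts at 0. The groups are separate for EPAS1, CA9, NDRG1 and BNIP3, while HIF1A lay lower in HG with overlap.

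The α subunits differed in direction. HIF1A, on chromosome 14 from 61695513 to 61748259 (GRCh38, forward strand), encodes the widely expressed subunit. Its level was 1081, 657, 848, 908 and 931 CPM in MG replicates 1 to 5 and 495, 720, 656, 777 and 778 CPM in HG_1 to HG_5. Every HG library lay below 4 of the 5 MG libraries, and the groups overlapped only through MG replicate 2, whose 657 CPM exceeded 2 HG libraries. The mean was 885 ± 154 CPM in MG and 685 ± 118 CPM in HG, a log2 fold change of -0.37 (SE 0.145, 95% interval -0.69 to -0.05). This did not pass the test, with an adjusted p of 0.118 by edgeR. It passed without MG replicate 2 (-0.46, adjusted p = 0.0383), without both libraries that stood apart (-0.36, adjusted p = 0.0100), after GC and length correction (-0.40, adjusted p = 0.00202), with 1 surrogate variable (-0.28, adjusted p = 0.00188) and by DESeq2 (-0.37, adjusted p = 0.0472). Rows called lower made up 8.20% without MG replicate 2, 16.5% with the surrogate variable and 10.2% by DESeq2. Over all alternatives the adjusted p ranged from 0.00188 to 0.258. The HIF1A transcript has a GC content of 36.4%, the lowest of the members, and HG_1 and MG replicate 2 held its lowest level within their groups. In the annotation, 1.35% of the 100-base windows of its transcript also occur in AL137129.1, and HIF1A-AS1 and HIF1A-AS2 overlap it on the other strand.

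EPAS1, on chromosome 2 from 46293667 to 46386703 (forward strand), encodes the α subunit of HIF-2. It was measured at 150, 139, 164, 153 and 162 CPM in MG replicates 1 to 5 and at 179, 210, 210, 208 and 197 CPM in HG_1 to HG_5. All HG libraries lay above all MG libraries, with HG_1 and MG replicate 2 the lowest of their groups. The mean was 154 ± 10.3 CPM in MG and 201 ± 13.3 CPM in HG, which gave a log2 fold change of 0.39 (SE 0.0611, 95% interval 0.25 to 0.52, adjusted p = 0.00183). Without the 2 libraries that stood apart it was 0.39 (adjusted p = 0.000218).

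Since both subunits were measured in the same libraries, their ratio does not depend on scaling between libraries. It can still depend on GC content, which was 36.4% for HIF1A and 52.6% for EPAS1. The log2 ratio of EPAS1 to HIF1A in CPM was -2.85, -2.25, -2.37, -2.57 and -2.53 in MG replicates 1 to 5 and -1.47, -1.78, -1.64, -1.90 and -1.98 in HG_1 to HG_5. HG_1 and MG replicate 2 held the highest ratio of their groups. The groups did not overlap, and the mean difference of 0.76 had an exact two-sided permutation p = 0.00794, the smallest that 252 arrangements allow (0.0238 adjusted over the 3 ratios tested). Without both of those libraries, and in the other alternatives that left out no single library, the difference was 0.75 to 0.76 (adjusted permutation p 0.0238 to 0.0429). Per transcript length, HIF1A was 7.60 ± 1.24 times as abundant as EPAS1 in MG and 4.49 ± 0.622 times in HG, in the FPKM of the authors. The other subunits that could be tested did not pass: the log2 fold change was 0.03 for ARNT (adjusted p = 0.858) and -0.09 for ARNT2 (adjusted p = 0.305). HIF3A had 0 counts in every library, which allows up to 0.0654 to 0.0925 CPM depending on the library (3 counts).

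**Figure D2:**
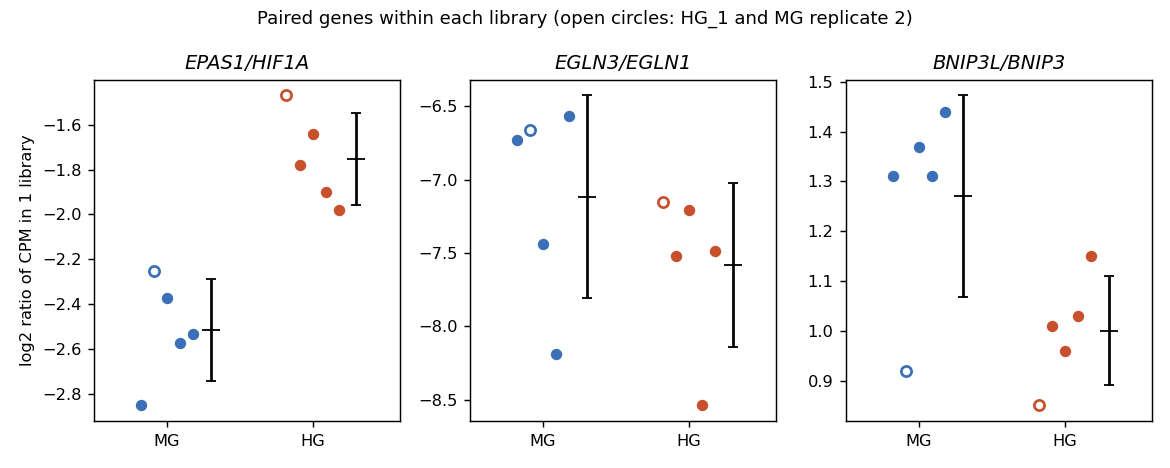
Log2 ratio of CPM within each library for EPAS1 to HIF1A, EGLN3 to EGLN1 and BNIP3L to BNIP3, with group mean and SD; open circles mark HG_1 and MG replicate 2, and the vertical axes differ. For EPAS1 to HIF1A, MG lay between -2.85 and -2.25 and HG between -1.98 and -1.47, while the groups overlapped for the other ratios.

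Of the regulators, none passed the test. VHL, on chromosome 3 from 10141008 to 10152220 (forward strand), is the substrate-binding part of the ubiquitin ligase that degrades α subunits. Its level ranged from 71.5 to 79.4 CPM in MG and from 67.1 to 74.6 CPM in HG, with means of 75.5 ± 3.00 and 71.2 ± 2.86. The log2 fold change was -0.08 (95% interval -0.19 to 0.02, adjusted p = 0.266). EGLN1, on chromosome 1 from 231363751 to 231425044 (reverse strand), is the main hydroxylase of the α subunits in oxygenated cells. It ranged from 78.0 to 99.0 CPM in MG and from 81.0 to 110 CPM in HG, with a log2 fold change of 0.09 (95% interval -0.10 to 0.29, adjusted p = 0.552). It passed only with 1 surrogate variable (0.14, adjusted p = 0.0251), with 16.5% of all rows called higher. Both groups of both genes overlapped, and each gene was lowest in HG_1 and MG replicate 2 within its group, as HIF1A and EPAS1 were.

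EGLN3, on chromosome 14 from 33924231 to 34462774 (reverse strand), is a hydroxylase that hypoxia itself induces. Few reads covered it: 29, 32, 19, 9 and 41 counts in MG replicates 1 to 5 and 20, 21, 27, 8 and 15 counts in HG_1 to HG_5. The groups overlapped, and the log2 fold change of -0.47 had a 95% interval from -1.27 to 0.33 (adjusted p = 0.449), so neither a fall nor a small rise could be told from no change at this depth. The log2 ratio of EGLN3 to EGLN1 was -7.12 ± 0.688 in MG and -7.58 ± 0.562 in HG, with an exact two-sided permutation p = 0.310 (n = 5 in each group). That difference of -0.46 moved to -0.73 without MG replicate 4 and to -0.22 without HG_4, and the log2 fold change of EGLN3 itself to between -0.66 (without MG replicate 4) and -0.31 (without MG replicate 5), with -0.07 by limma on log2(FPKM + 1), where the added 1 exceeds its level. The annotated span of EGLN3 also covers SPTSSA on the same strand and EGLN3-AS1 on the other, and reads of EGLN3 and its antisense RNA could not be told apart unless counting used strand, which is not stated.

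Of the 10 genes listed for oxygen sensing and the VHL complex, 0 passed by edgeR, with 1 at an unadjusted p under 0.05, and 0 passed by DESeq2, where 15.4% and 19.8% of all rows passed. Their median log2 fold change was 0.06. With the GC and length correction, and also without HG_1 and MG replicate 2, 2 of the 10 passed, both higher, where 13.8% and 13.3% of all rows were called higher; leaving out HG_1 alone, or MG replicate 2 alone, gave 1. Among the 13 listed modulators of HIF, only CITED2 passed, a share close to that of all rows called higher (7.62%). This gene, which competes with HIF for its coactivators and is itself a HIF target, rose from 157 ± 8.85 to 195 ± 12.6 CPM (log2 fold change 0.32, adjusted p = 0.00359). The count of modulators called ranged from 1 to 3 over the alternatives, with 3 by DESeq2 and with 1 surrogate variable, where 19.8% and 33.0% of all rows were called, and with 2 on leaving out HG_5 or MG replicate 2.

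CA9, on chromosome 9 from 35673856 to 35681159 (forward strand), showed the largest difference among the members that passed. It encodes a carbonic anhydrase of the cell surface that helps regulate pH and is among the best known HIF-1 targets. It was measured at 9.49, 11.7, 6.95, 7.75 and 8.69 CPM in MG replicates 1 to 5 and at 19.0, 22.1, 18.9, 21.5 and 12.1 CPM in HG_1 to HG_5. All HG libraries lay above all MG libraries, but HG_5 only just above MG replicate 2, while the other HG libraries were well apart. The mean was 8.92 ± 1.84 CPM in MG and 18.7 ± 3.96 CPM in HG, a fold change of 2.10 (log2 1.07, SE 0.180, 95% interval 0.67 to 1.46, adjusted p = 0.00265). Leaving out a single library gave log2 values from 0.99 to 1.19, and the gene passed each time. ARHGEF39 overlaps CA9 on the other strand. It did not pass, at 12.3 ± 1.32 CPM in MG and 11.1 ± 1.25 CPM in HG (log2 fold change -0.15, adjusted p = 0.386).

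Among 13537 other rows with a mean of at least 1 CPM, the profiles nearest to that of CA9 over the 10 libraries were those of CTH, RASD2 and CCRL2. Their root mean square differences from it were 0.236, 0.238 and 0.252 on the log2 scale after centring. CTH, an enzyme of cysteine synthesis, rose from 7.61 to 15.6 CPM (log2 fold change 1.04) and RASD2 from 7.96 to 16.5 CPM (1.05). CCRL2 rose from 1.81 to 3.10 CPM (0.77, and 0.44 by limma on log2(FPKM + 1)). These genes were picked for profiles near that of CA9, so their rise in HG follows from the choice.

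BNIP3, on chromosome 10 from 131966455 to 131982013 (reverse strand), encodes a mitochondrial outer membrane protein that marks mitochondria for autophagy. It was measured at 61.8, 67.0, 56.5, 57.9 and 56.4 CPM in MG replicates 1 to 5 and at 76.4, 96.8, 94.7, 98.6 and 81.0 CPM in HG_1 to HG_5. All HG libraries lay above all MG libraries, and HG_1 and MG replicate 2, at 76.4 and 67.0 CPM, were the nearest to each other. The mean rose from 59.9 ± 4.52 to 89.5 ± 10.1 CPM, a fold change of 1.49 (log2 0.58, SE 0.0831, 95% interval 0.40 to 0.76, adjusted p = 0.00113). This value sits at the edge of the fold limit of 1.5, and leaving out HG_1, HG_5, MG replicate 1 or MG replicate 2 placed BNIP3 above it, so that 2 members passed. Without HG_1 and MG replicate 2 together its log2 fold change was 0.68. In the annotation 4.18% of the 100-base windows of its transcript also occur in the pseudogene BNIP3P1, and the antisense RNAs AL162274.1 and AL162274.2 overlap it.

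BNIP3L, the paralog with the same role, went from 145 ± 10.8 to 180 ± 25.2 CPM (log2 fold change 0.32, adjusted p = 0.0519), with overlap. It passed by DESeq2 (0.31, adjusted p = 0.0139), without HG_1 (0.40, adjusted p = 0.00176) and without HG_1 and MG replicate 2 (0.35, adjusted p = 0.000515), among others. The log2 ratio of BNIP3L to BNIP3 was 1.31, 0.92, 1.37, 1.31 and 1.44 in MG replicates 1 to 5 and 0.85, 1.01, 0.96, 1.03 and 1.15 in HG_1 to HG_5. MG replicate 2 lay among the HG libraries and the other MG libraries above them. The mean difference was -0.27, with an exact two-sided permutation p = 0.0397 and p = 0.0595 after adjustment over the 3 ratios. Without MG replicate 2 it was -0.36 (adjusted p = 0.0238). Among all 8 listed genes of mitophagy, 1 rose (BNIP3) and 1 fell, against 7.62% and 7.80% of all rows. The latter, PINK1, a kinase of the other main route of mitophagy, was chosen after its values were seen, and went from 229 ± 14.9 to 183 ± 18.8 CPM (log2 fold change -0.32, adjusted p = 0.0118). With the column number as a block PINK1 did not pass (-0.33, adjusted p = 0.0572). The count of this list called ranged from 1 to 4 over the alternatives. The share of all rows called also differed between fits, at 19.8% by DESeq2 and 33.0% with 1 surrogate variable.

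NDRG1, on chromosome 8 from 133237171 to 133302022 (reverse strand), is a stress-responsive gene long used as a marker of hypoxia. It was measured at 32.0, 31.2, 29.0, 27.4 and 28.7 CPM in MG replicates 1 to 5 and at 37.3, 40.7, 39.2, 37.8 and 32.1 CPM in HG_1 to HG_5. The groups did not overlap, but the lowest HG value (HG_5) stood just above the highest MG value (MG replicate 1). The mean rose from 29.6 ± 1.88 to 37.4 ± 3.28 CPM (log2 fold change 0.34, SE 0.0722, 95% interval 0.18 to 0.50, adjusted p = 0.00988). Within the NDRG family, NDRG4 fell from 156 ± 4.84 to 130 ± 4.65 CPM (log2 fold change -0.26, adjusted p = 0.00169), a gene chosen after its values were seen. NDRG2 and NDRG3 did not pass.

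ADM and ANKRD37, which hypoxia induces in many cells, did not pass. ADM, on chromosome 11 from 10304680 to 10307397 (forward strand), encodes the vasodilator peptide adrenomedullin. It ranged from 55.7 to 62.5 CPM in MG and from 58.9 to 66.5 CPM in HG, with the highest value of each group in MG replicate 2 and HG_1. The log2 fold change was 0.08 (95% interval -0.03 to 0.19, adjusted p = 0.344), an interval that leaves out the value fitted for each of the 4 members that rose. Among the 4 tested genes of the adrenomedullin system, the receptor gene CALCRL was near the floor (0.262 ± 0.0735 CPM in MG and 0.328 ± 0.168 CPM in HG, adjusted p = 0.657). The only gene of that system that passed was ACKR3, a scavenger receptor of the peptide (chosen after its values were seen), with a log2 fold change of -0.25 (adjusted p = 0.0181), but it did not pass without HG_3 (-0.22, adjusted p = 0.0538) or in the 3 limma fits on FPKM. Over all rows 15.4% passed. The count for this list ranged from 0 to 2 over the alternatives, with 2 without HG_1 and without MG replicate 1. By DESeq2, with GC and length correction and without HG_1 and MG replicate 2 together it was 2, 1 higher and 1 lower. Those fits called 19.8%, 27.9% and 27.1% of all rows. PAM, which processes the peptide, did not pass (log2 fold change 0.20, adjusted p = 0.0532), and was named after its values were seen. RAMP1, RAMP2 and RAMP3, which pair with CALCRL, fell under the count filter.

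ANKRD37, on chromosome 4 from 185396021 to 185400628 (forward strand), encodes a small ankyrin repeat protein. It was measured at 3.43, 3.45, 3.73, 2.39 and 3.23 CPM in MG replicates 1 to 5 and at 3.53, 3.32, 3.97, 3.37 and 3.56 CPM in HG_1 to HG_5. The groups overlapped, and MG replicate 4 was the only library below 3.23 CPM. The log2 fold change was 0.13 (95% interval -0.18 to 0.43, adjusted p = 0.609), and 0.04 both without MG replicate 4 and with GC and length correction. UFSP2 overlaps it on the other strand, with a log2 fold change of 0.03 (adjusted p = 0.849).

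**Figure D3:**
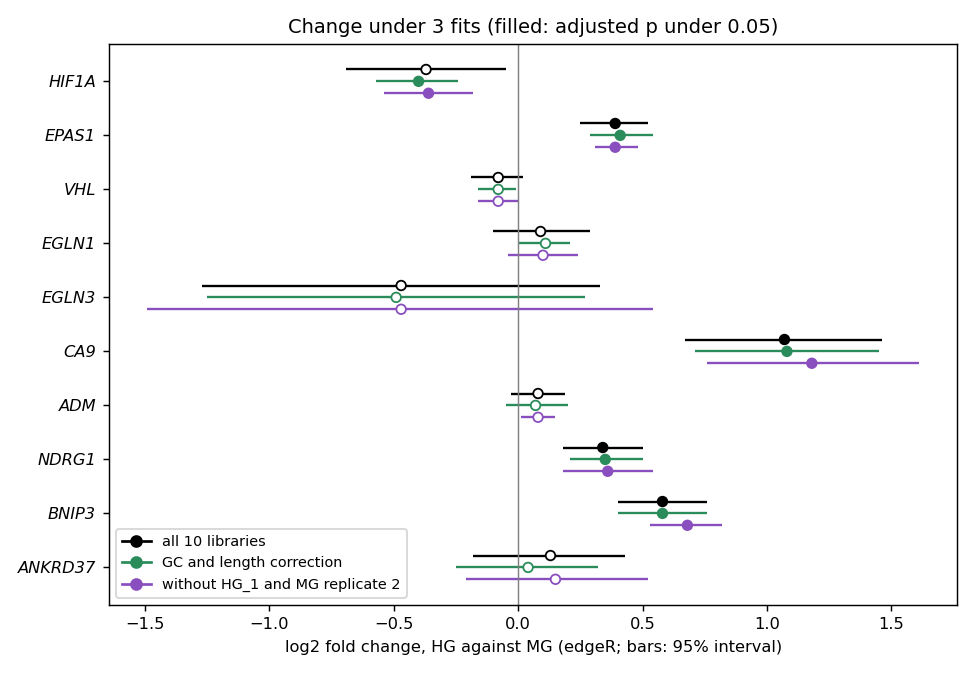
Log2 fold change of each member, HG against MG, with 95% intervals, from all 10 libraries, with GC and length correction, and without HG_1 and MG replicate 2; filled points passed an adjusted p of 0.05. EPAS1, CA9, NDRG1 and BNIP3 are filled above 0 in all 3 fits, and HIF1A is filled below 0 in the latter pair of fits.

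Levels of different genes were set side by side only per length, in the deposited FPKM (fragments scaled to transcript length and library size). In MG, HIF1A led with 209 ± 38.0 FPKM, higher than 98.3% of the rows tested. BNIP3 (35.1 ± 2.11) and ADM (32.5 ± 1.46) followed with overlapping libraries, then EPAS1 (27.5 ± 2.15), EGLN1 (19.9 ± 1.96), VHL (15.7 ± 0.838) and NDRG1 (9.10 ± 0.522). CA9 (5.31 ± 1.02) and ANKRD37 (3.95 ± 0.626) overlapped each other, and EGLN3 came last with 0.208 ± 0.0933 FPKM. In HG the order of the means was kept except that EPAS1 (36.3 ± 3.10) passed ADM (34.8 ± 1.33), with overlapping libraries. CA9, at 11.3 ± 2.44 FPKM in HG, overlapped NDRG1 at 11.7 ± 1.04 FPKM and no longer ANKRD37 at 4.33 ± 0.341 FPKM.

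**Figure D4:**
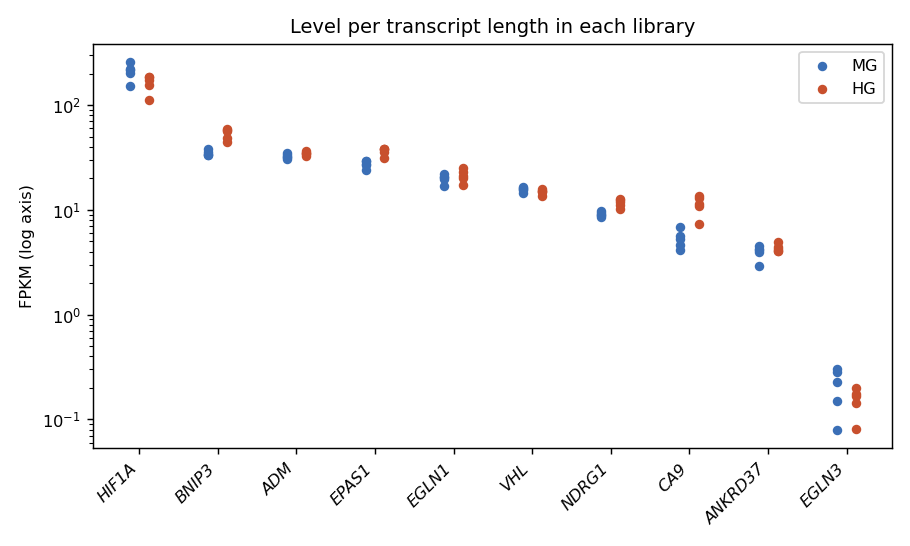
FPKM of each member in every library on a log axis, with MG and HG side by side and genes ordered by their MG mean. HIF1A lay above 100 FPKM in each library and EGLN3 under 1 FPKM, and CA9 moved from beside ANKRD37 in MG to beside NDRG1 in HG.

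Beyond the members, the core hypoxia response outside glycolysis was described with 44 tested genes, of which 17 rose and 2 fell, with a median log2 fold change of 0.19. Without the members of this set, 14 rose and 2 fell among 37 genes, and the median was again 0.19. Over all rows 7.62% rose and 7.80% fell. Those past the fold limit included VEGFA, SPAG4 and HMOX1 upward and IGFBP3 downward. VEGFA, the vessel growth factor, rose from 47.8 ± 2.07 to 87.1 ± 9.12 CPM (log2 fold change 0.87, adjusted p = 6.97e-05). SPAG4 rose from 3.82 ± 0.377 to 6.11 ± 0.672 CPM (0.68), and HMOX1, which breaks down heme and also answers oxidative stress, from 49.1 ± 5.97 to 77.8 ± 9.22 CPM (0.66). IGFBP3, which binds insulin-like growth factors, fell from 287 ± 30.1 to 174 ± 22.9 CPM (-0.72). Without HG_1 and MG replicate 2, 22 rose and 2 fell, against 13.3% and 13.8% of all rows, and with GC and length correction 21 rose and 5 fell, against 13.8% and 14.1%. The number of genes called on this list ranged from 13 to 29 over the alternatives. The share of all rows called also differed, at 15.4% by edgeR without covariates and 33.0% with 1 surrogate variable. Genes of the list such as CA12, ANGPTL4, STC1 and NRN1 fell under the count filter.

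Of the 20 glycolytic HIF targets, 8 rose and 1 fell, with a median log2 fold change of 0.26, against 7.62% and 7.80% of all rows. ALDOC, an aldolase, rose from 22.3 ± 4.52 to 45.6 ± 7.17 CPM (log2 fold change 1.03, adjusted p = 0.00134). The gene that fell was SLC2A1, which encodes the glucose transporter GLUT1, from 916 ± 49.2 to 586 ± 42.0 CPM (-0.64, adjusted p = 9.80e-05). PGK1 (0.50), chosen after its values were seen, passed as well. The count called depended on the fit. Without HG_1 and MG replicate 2, 15 rose and 1 fell, against 13.3% and 13.8% of all rows, and with GC and length correction 15 rose and 1 fell, against 13.8% and 14.1%. In the other direction, 4 were called with the column number as a block, and 6 without MG replicate 1 or without MG replicate 4. The shares of all rows called in those fits are not given here, so a general loss of calls cannot be told apart. Among the 7 tested genes known in other cells to depend more on EPAS1, the median was 0.47 and 6 lay above 0. Of these genes 3 passed, all higher, against 7.62% of all rows. These were PLIN2, a lipid droplet protein (from 101 ± 9.47 to 177 ± 9.95 CPM, log2 fold change 0.81, adjusted p = 8.85e-05), the iron transporter SLC11A2 (from 88.2 ± 12.2 to 148 ± 11.8 CPM, 0.75, adjusted p = 0.000684), and TGFA (0.47, adjusted p = 0.00568, named after its values were seen). Leaving out HG_1 and MG replicate 2 raised the count of that list to 7, with 6 higher and 1 lower, against 13.3% and 13.8% of all rows. DESeq2 called 5 of the list, where 19.8% of all rows were called. Leaving out HG_4 also gave 5, in a fit for which the share of all rows is not given here. EPO, also on the list, fell under the count filter. Of 5 tested carbonic anhydrases, 2 rose, against 7.62% of all rows. These were the member CA9 and CA5B (0.52, adjusted p = 0.0425, named after its values were seen). The fold of CA5B held at 0.45 to 0.61 when single libraries were left out, but it no longer passed without HG_2, HG_3, HG_4, HG_5 or MG replicate 2, 3 or 4. Nor did it pass by the likelihood ratio test (0.52), without a filter (0.52) or with the block (0.54), and limma gave 0.06 on log2(FPKM + 1) and 0.18 on log2(FPKM + 0.1).

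Over all lists together, with each gene counted once, 31 of 112 tested genes rose (27.7%) and 6 fell (5.36%), against 7.62% and 7.80% of all rows, and the median log2 fold change was 0.14. The lists were written with earlier results of these data known, so these counts are descriptions.

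**Figure D5:**
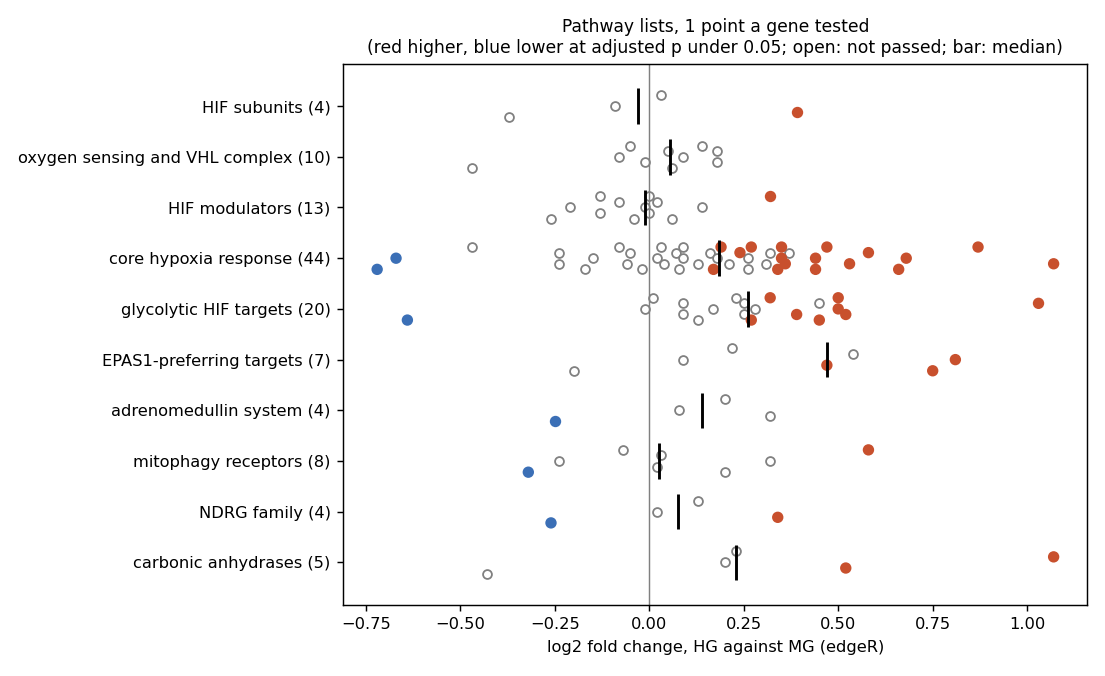
Log2 fold change of every tested gene of the 10 pathway lists, 1 point a gene, red for higher and blue for lower at an adjusted p under 0.05, open where the test was not passed, with a bar at the median. The core and glycolytic lists hold most red points, with medians of 0.19 and 0.26, and IGFBP3, in the core list, is the blue point farthest to the left.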

How the data were processed

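RNA of 10 ARPE-19 samples (5 MG, 5 HG) was sequenced from libraries of a VAHTS Universal V6 kit. The submitters' processing notes name fastp 0.20.1, HISAT2 2.2.1 and the GRCh38 build. The counting program, annotation and use of strand are not given in the sources used here. The authors deposited whole-number read counts per gene without normalization, and FPKM of the same libraries, divided by transcript length and library size. MG columns match sample titles by number. HG columns carry numbers where the titles carry letters, so each was used only as an HG library. Rows named MSTRG, with no annotated gene, held 1.34% to 1.65% of counts.

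The members and lists were chosen with earlier results of these data known. The counts were tested in edgeR 4.0.16 (R 4.3.3) with the default low-count filter, TMM, the quasi-likelihood test and Benjamini-Hochberg adjustment over 14936 rows, on all 10 libraries without covariates. The paper names no tool for this comparison. Its fold limit of 1.5 was used as a second rule. Log2 CPM used a prior count of 2. Intervals are at 95%. A floor of 3 counts is 0.0654 to 0.0925 CPM, and it covers counting error only. Ratios within libraries were tested by exact permutation. Alternatives were DESeq2 1.42.0, a likelihood ratio test, scaling by RLE or by library size alone, 10 counts required in every library or no filter, limma 3.58.1 on log2(FPKM + 1) or log2(FPKM + 0.1), the former also with a mean FPKM of at least 1, the column number as a block, 1 surrogate variable (sva 3.50.0), a GC and length correction over 13538 rows, each library left out in turn, and HG_1 and MG replicate 2 left out together. The edgeR code was tested on simulated data. Besides the members, named genes were those of the lists past both rules, the largest difference of each list without such a gene, ratio partners, the 3 profiles nearest to the called member with the largest difference, and TXNIP. The counts include 1 listed gene whose values are not reported here. Other genes, ARNT, ARNT2, ARHGEF39 and UFSP2 among them, were chosen after their values were seen. Gene positions, transcript GC content and overlaps came from GENCODE release 29 (GRCh38), and promoters from RefSeq, whose starts can differ from it.

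Counts of replicates of a group differed by more than counting noise (chi-square per gene 13.2 to 78.7 over 20 pairs), so none was treated as a library deposited again. This does not tell whether they came from separate cultures.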

Additional observations from a re-analysis of the deposited data

Results flagged for a closer look

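Values of the members, of the other named genes, of the ratios and of the library totals were searched for a library far from the rest of its group, over 60 groups of values. A gap this wide is met by chance in about 1 of 20 such groups, so about 3.00 were to be met by chance, and 5 were found. HMOX1 was at 38.8 CPM in MG replicate 1, against 50.5 to 54.2 CPM in the other MG libraries. PLIN2 was at 84.4 CPM in the same library, against 103 to 108 CPM. The log2 ratio of BNIP3L to BNIP3 was 0.918 in MG replicate 2, against 1.31 to 1.44 in the other MG libraries. IGFBP3 was at 214 CPM in HG_5, against 156 to 169 CPM in the other HG libraries. The log2 ratio of EGLN3 to EGLN1 was -8.54 in HG_4, against -7.52 to -7.15 in the other HG libraries, and it rests on 8 counts of EGLN3 in that library. No CPM value of a member met this limit on its own.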

How the results depend on the processing

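None of the 10 members and 3 ratios changed direction under an alternative. Of 228 member values recomputed, 222 kept their side of the threshold and 6 came to pass it, 5 of HIF1A and 1 of EGLN1. EPAS1, CA9, NDRG1 and BNIP3 passed under every alternative, and the number of members called ranged from 4 to 6. The number past the fold limit was 1, and 2 with library size alone, limma on log2(FPKM + 0.1), 1 surrogate variable, or without HG_1 and MG replicate 2 together, with 1 to 2 when single libraries were left out. The lists together held 37 called genes, 63 with 1 surrogate variable, 58 without HG_1 and MG replicate 2, 57 with GC and length correction, and 32 to 45 when single libraries were left out. The share of all rows called rose in the same fits, from 15.4% to 33.0%, 27.1% and 27.9%. With the column number as a block, they held 24, the members called were again 4, and no call of a member changed. The share of all rows called in that fit is not given here. No pairing by number was seen: libraries of the same number correlated at -0.07 to 0.04, and 1 of 5 HG columns correlated best with its own number. The highest correlation, 0.188, was between HG_1 and MG replicate 2, the libraries that stood apart. This check alone cannot exclude a pairing. The difference of BNIP3L to BNIP3 was -0.29 with FPKM (adjusted p = 0.0476) and -0.32 without HG_1 and MG replicate 2 (adjusted p = 0.0429), by exact permutation, with -0.36 to -0.23 when single libraries were left out. Among 26 other genes recomputed in the same way, those that changed direction had not passed: CALCRL, with -0.03 to 0.50 when single libraries were left out, ARNT, with -0.02 to 0.08, and UFSP2, with -0.01 to 0.06 and -0.03 with GC and length correction. The median of the HIF modulators went from -0.01 to 0.01 with that correction, and that of the mitophagy list from 0.02 to just under 0 without HG_1 and MG replicate 2. The cause of these shifts was not tested. Filters at 10 counts in every library and at a mean FPKM of 1 left no value for EGLN3, the member with the lowest level.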
